A study of Mus musculus with 24 samples.

Results

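RN2 cells that expressed the hairpin shOgdh346 for 4 days were compared with RN2 cells that expressed the control hairpin shRen713 for the same time. The comparison takes every library labelled D4 with either hairpin, 8 of the 24 libraries of the series, with 4 on each side. RN2 is a line of murine AML (acute myeloid leukaemia) with the genotype Mll-Af9 and NrasG12D, which all libraries share. Cells were transduced with retroviral vectors that express a short hairpin RNA when doxycycline is given, and were grown in RPMI with serum.

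The shOgdh346 libraries come from clones 1 and 5 and the control libraries from clones 2 and 7, with 2 libraries per clone at day 4 of doxycycline. Doxycycline was therefore given on both sides, and what differs by label is the hairpin and the clone. Each hairpin is thus represented by 2 clones, and the labels do not say that the 2 libraries of a clone came from separate cultures, so the libraries of a clone were summed and the clone was the replicate (n = 2 per hairpin). Untreated day 0 libraries of the same clones, and the day 4 libraries of a second Ogdh hairpin, shOgdh2081 (clones 3 and 5), serve as references below.

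Ogdh encodes the 2-oxoglutarate dehydrogenase subunit of the mitochondrial complex that turns 2-oxoglutarate into succinyl-CoA in the tricarboxylic acid (TCA) cycle. 2-oxoglutarate also links the cycle to glutamate and to aspartate, proline and serine synthesis through transaminases, and is the co-substrate of dioxygenases that demethylate histones and DNA and hydroxylate hypoxia-inducible factors. Leukaemia cells driven by MLL fusions are held at an immature myeloid stage, and maturation along the neutrophil or monocyte path brings granule proteins, calprotectin, adhesion molecules and pathogen receptors while proliferation stops.

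Total counts ran from 8232763 to 15660295 in the shOgdh346 libraries at day 4 and from 8394101 to 9612783 in the control. The share of counts in the 10 most abundant genes was 6.27% to 8.98% with shOgdh346 and 3.63% to 4.18% in the control, and 18133 to 19468 genes against 16955 to 17341 had at least 1 count. Levels are CPM, counts relative to the size of the library, with sizes scaled by the trimmed mean of M values (TMM). Differences are log2 ratios of shOgdh346 to control from a fit to the 6 clone sums of day 4, which includes shOgdh2081 for its spread, and p-values come from the quasi-likelihood test of edgeR, adjusted over all genes tested by the Benjamini-Hochberg method. A gene is called when its adjusted p is under 0.05, and intervals given as 95% are unadjusted. Members of gene lists are named mostly for their small p in this same contrast, so the examples are not typical of their lists.

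The targeted gene was lower with its hairpin. Ogdh (ENSMUSG00000020456, GRCm38 chromosome 11, 6291633 to 6356642) was at 35.8 and 35.7 CPM in clone 1 and 53.6 and 58.7 CPM in clone 5 of shOgdh346, against 206 and 207 CPM in clone 2 and 235 and 251 CPM in clone 7 of the control. Every shOgdh346 library lay below every control library, and clone 1 lay below clone 5. The clone means were 45.96 ± 14.5 CPM with shOgdh346 and 224 ± 25.7 CPM in the control (SD, n = 2 clones each). The fit gave a log2 difference -2.31, SE 0.38, adjusted p = 0.0199. At day 0 the same shOgdh346 clones were at 124 and 135 CPM (clone 1) and 145 and 148 CPM (clone 5), already below the control clones at 200.3 and 215 CPM (clone 2) and 242 and 247 CPM (clone 7). The day 0 log2 difference was -0.72 (SE 0.15, adjusted p = 0.958) and the change beyond it -1.64 (SE 0.21, adjusted p = 0.00113). With shOgdh2081, Ogdh was at 32.9 to 71.7 CPM at day 4, which overlaps the range of shOgdh346. Without the filter on low counts the Ogdh call ended (adjusted p = 0.0892).

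**Figure D1:**
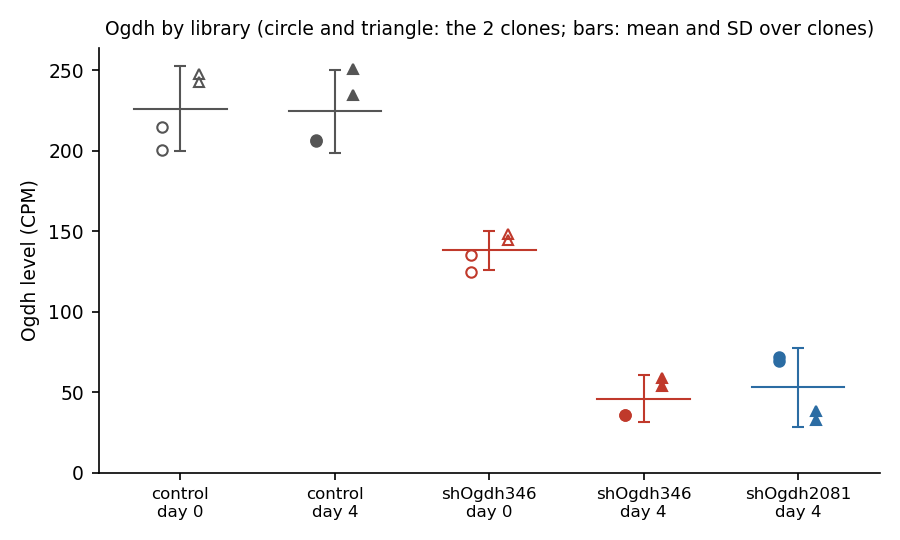
Ogdh level in CPM (linear axis from 0) in each library, by hairpin and day; symbols mark the clones of a hairpin, open symbols day 0, and lines with bars the mean and SD over 2 clones. The shOgdh346 libraries at day 4 sit between 35.7 and 58.7 CPM, below their own day 0 libraries and below the control at 206 to 251 CPM.

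Of 13747 genes tested, 3133 were called (22.8%), 1555 higher (11.3%) and 1578 lower (11.5%) with shOgdh346. The counts called in every gene list below are to be read beside these shares. The rises were larger than the falls: 914 genes were more than 2-fold higher and 457 more than 2-fold lower, and 171 against 3 passed 16-fold. The median called rise was 1.22 and the median called fall -0.79 on the log2 scale, beside a median of 0.01 over all genes tested. In 3126 of the called genes the 4 libraries of one hairpin did not overlap the 4 of the other, as was the case for 7438 genes of all tested (54.1%). Non-overlap of single genes below is to be read beside this share. On total counts without TMM scaling the median of all genes moved by -0.125 and 1277 genes were called higher and 2295 lower, so that 35.8% of called genes were higher in place of 49.6%.

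Most calls were lost without any 1 clone. Leaving out control clone 2 left 23 higher and 1 lower, control clone 7 left 111 and 49, shOgdh346 clone 1 left 4 and 0, and shOgdh346 clone 5 left 403 and 300. Of the 3133 genes called, 23, 143, 3 and 667 were called in the same direction in these fits, and each one that was still tested had the same sign. With 1 clone on a side the lone clone is assumed to vary like the others.

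Around Ogdh, the other subunits of the complex were not called while TCA cycle enzymes were lower in part. In the list of the 2-oxoglutarate dehydrogenase complex and lipoylation, of 8 tested members 1 was lower and 0 higher, with a median log2 difference of -0.46, beside 11.5% and 11.3% of all genes tested, and the call was Ogdh itself. Dlst, the succinyl-transferase core of the complex, ran from 309.7 to 397 CPM with shOgdh346 and 241 to 291 CPM in the control (log2 difference 0.40, SE 0.19, adjusted p = 0.171). Dld, its shared dehydrogenase, ran from 157 to 173 CPM with shOgdh346 and 144 to 188 CPM in the control (log2 difference -0.05, SE 0.13, adjusted p = 0.818). Neither was called. Each Dlst library with shOgdh346 lay above the control libraries, whereas Dld overlapped. Libraries of the hairpins did not overlap for 54.1% of all genes tested. The lipoylation enzymes Lias and Lipt2 were at -0.41 (adjusted p = 0.0613) and -0.86 (adjusted p = 0.0599).

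For the TCA cycle, of 22 tested members 8 were lower and 0 higher, beside 11.5% and 11.3% of all genes tested. The median log2 difference was -0.36. Fh1, fumarase, was at 55.9 and 52.5 CPM in clone 1 and 65.1 and 60.8 CPM in clone 5 of shOgdh346, against 127 and 127 CPM in clone 2 and 128 and 117 CPM in clone 7 of the control (log2 difference -1.11, SE 0.14, adjusted p = 0.0135). Suclg2, the GTP-forming succinyl-CoA ligase subunit that acts on the product of the Ogdh complex, ran from 17.7 to 24.7 CPM with shOgdh346 and 44.9 to 49.4 CPM in the control (log2 difference -1.19, SE 0.18, adjusted p = 0.0169). Idh2, mitochondrial isocitrate dehydrogenase, which makes 2-oxoglutarate, ran from 162 to 174 CPM with shOgdh346 and 254 to 296 CPM in the control (log2 difference -0.72, SE 0.12, adjusted p = 0.0195). For these genes no shOgdh346 library reached the lowest control library. Pcx, pyruvate carboxylase, differed by -1.38 (adjusted p = 0.0211), and Mdh1, Sucla2, Idh3g and Sdha were also lower, by -0.56, -0.49, -0.49 and -0.47 on the log2 scale.

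Enzymes that move amino groups to and from glutamate were lower in part. In the list of glutamine, glutamate, aspartate and proline genes, of 23 tested members 7 were lower and 0 higher, with a median log2 difference of -0.40. Gpt2, the mitochondrial alanine transaminase, was at 12.2 and 12.6 CPM in clone 1 and 15.2 and 13.8 CPM in clone 5 of shOgdh346, against 38.01 and 36.2 CPM in clone 2 and 48.4 and 48.3 CPM in clone 7 of the control (log2 difference -1.67, SE 0.20, adjusted p = 0.0127). Aldh18a1 and Oat, which feed glutamate semialdehyde to proline and ornithine, differed by -1.46 (adjusted p = 0.0133) and -0.99 (adjusted p = 0.012), and no library of either hairpin overlapped. The list of branched-chain amino acid breakdown was near the 11.5% lower and 11.3% higher of all genes tested: of 20 tested members 3 were lower and 1 higher, with a median log2 difference of -0.38, or -0.17 without shOgdh346 clone 1. Its member Bckdk, the kinase that switches the branched-chain dehydrogenase off, was lower (-0.90, adjusted p = 0.0211), and Acadsb, a short branched-chain acyl-CoA dehydrogenase, higher (0.73, adjusted p = 0.0237).

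Nuclear genes of the respiratory chain were lower in part. Among nuclear subunits, of 45 tested members 12 were lower and 0 higher, beside 11.5% and 11.3% of all genes tested. Their median log2 difference was -0.41. Ndufv1, the complex I subunit that takes electrons from NADH, ran from 48.7 to 58.3 CPM with shOgdh346 and 85.9 to 89.6 CPM in the control (log2 difference -0.70, SE 0.09, adjusted p = 0.0149), without overlap. Of 13 messenger genes of the mitochondrial DNA, 7 were tested. The other 6 (mt-Nd3, mt-Nd4l, mt-Co2, mt-Co3, mt-Atp6 and mt-Atp8) had 0 counts in all 8 libraries. Why was not tested, and the counts of this list are therefore incomplete. Among those tested 1 gene was higher, a share near the 11.3% of all genes tested, with a median of 0.29, or 0.17 without shOgdh346 clone 5. That gene was mt-Co1, cytochrome oxidase subunit 1, at 9004 and 8834 CPM in clone 1 and 9030 and 9545 CPM in clone 5 of shOgdh346, against 5309 and 5361 CPM in clone 2 and 6244 and 5860 CPM in clone 7 of the control (log2 difference 0.65, SE 0.14, adjusted p = 0.0277). All 4 shOgdh346 libraries lay above the control.

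Most targets of ATF4, the transcription factor of the integrated stress response that drives amino acid synthesis and import, were lower with shOgdh346, while 3 were higher. In this list, of 33 tested members 21 were lower and 3 higher, with a median log2 difference of -1.46, and the medians against the control were -1.46 for clone 1 and -1.28 for clone 5. Asns, asparagine synthetase, was at 41.5 and 42.3 CPM in clone 1 and 67.8 and 62.4 CPM in clone 5 of shOgdh346, against 208 and 196 CPM in clone 2 and 284 and 271 CPM in clone 7 of the control (log2 difference -2.17, SE 0.27, adjusted p = 0.0141). Shmt2, mitochondrial serine hydroxymethyltransferase, was at 114 and 122 CPM in clone 1 and 153 and 147 CPM in clone 5 of shOgdh346, against 499.8 and 505 CPM in clone 2 and 526 and 554 CPM in clone 7 of the control (log2 difference -1.97, SE 0.17, adjusted p = 0.0105). For both genes every control library lay above every shOgdh346 library.

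Atf4 itself ran from 290.3 to 326 CPM with shOgdh346 and 592 to 615 CPM in the control (log2 difference -0.97, SE 0.14, adjusted p = 0.0158). Atf5, a related factor, ran from 25.2 to 28.3 CPM with shOgdh346 and 63.3 to 73.4 CPM in the control (log2 difference -1.38, SE 0.11, adjusted p = 0.0104). The transporters Slc7a5 (-1.48), Slc7a1 (-1.22) and Slc1a4 (-2.96), the mitochondrial PEP carboxykinase Pck2 (-1.88) and the glutathione-degrading Chac1 (-1.90) were lower on the log2 scale. Cth, cystathionine gamma-lyase, which makes cysteine from cystathionine, was at 1.71 and 1.24 CPM in clone 1 and 2.23 and 2.55 CPM in clone 5 of shOgdh346, against 16.4 and 16.1 CPM in clone 2 and 36.1 and 35.95 CPM in clone 7 of the control (log2 difference -3.80, SE 0.57, adjusted p = 0.017). It had the largest called fall among genes with at least 5 CPM in the higher group and no overlap.

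The 3 list members that were higher are also known as targets of other factors. Slc7a11, the cystine importer, which NRF2 drives too, was at 477 and 463 CPM in clone 1 and 185 and 184 CPM in clone 5 of shOgdh346, against 15.4 and 15.7 CPM in clone 2 and 20.6 and 17.1 CPM in clone 7 of the control (log2 difference 4.22, SE 0.65, adjusted p = 0.0183). Atf3, a stress-induced factor, was at 3.54 and 3.88 CPM in clone 1 and 21.9 and 20.5 CPM in clone 5 of shOgdh346, against 0.211 and 0.404 CPM in clone 2 and 0.735 and 0.801 CPM in clone 7 of the control (log2 difference 4.52, SE 1.10, adjusted p = 0.0422). Clone 1 was higher than clone 5 for Slc7a11 and lower for Atf3, and neither gene overlapped with the control. Ddit4, an inhibitor of mTORC1, ran from 53.2 to 57.02 CPM with shOgdh346 and 23.8 to 25.2 CPM in the control (log2 difference 1.16, SE 0.11, adjusted p = 0.0112). Without the filter on low counts the Slc7a11 call ended (adjusted p = 0.0801). Ddit3, which encodes the stress factor CHOP, was at 0.38 with an adjusted p of 0.213.

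ATF4 binds as a heterodimer with C/EBP-type factors to a composite element, searched here as TGATGNAA on both strands in RefSeq promoters of build GRCm38.p6, each of 300 bases from 250 before the start site to 50 from it on. It occurred in 3.97% of 32851 promoters and in the promoters of 4.51% of 27025 genes. Of 36 ATF4 list members 32 had a promoter in the table and 11 of these (34.4%) held the element. It stood in 6 of 18 matched members that were lower, and also in the promoters of Slc7a11 and Atf3, which were higher. The windows below show sites of members from both directions, read 5′ to 3′ along the gene, with the match in capitals; TTGCATCA and TTACATCA are matches on the opposite strand.
Asns, chr6:7693210-7693258, minus strand: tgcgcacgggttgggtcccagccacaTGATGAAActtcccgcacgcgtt
Pycr1, chr11:120643818-120643877, minus strand: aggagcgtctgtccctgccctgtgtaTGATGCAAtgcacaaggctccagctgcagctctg
Chac1, chr2:119351023-119351082, plus strand: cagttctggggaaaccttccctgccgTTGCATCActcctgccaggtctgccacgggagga
Pck2, chr14:55540137-55540196, plus strand: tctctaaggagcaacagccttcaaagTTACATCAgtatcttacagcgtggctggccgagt
Nupr1, chr7:126625547-126625606, minus strand: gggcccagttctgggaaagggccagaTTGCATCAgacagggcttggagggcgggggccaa
Atf3, chr1:191183410-191183469, minus strand: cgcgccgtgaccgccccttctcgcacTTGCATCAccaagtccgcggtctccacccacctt
Slc7a11, chr3:50443646-50443705, minus strand: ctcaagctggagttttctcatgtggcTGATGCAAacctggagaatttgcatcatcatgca

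Nupr1, a stress-induced chromatin protein whose promoter is among these windows, ran from 0.441 to 0.946 CPM with shOgdh346 and 1.92 to 4.51 CPM in the control (log2 difference -2.33, SE 0.50, adjusted p = 0.0292). The element was thus printed for 5 genes that were lower and 2 that were higher. Slc7a11 holds another match close to the one in capitals, in lower case near the end of its window. A match is a description of the letters, not a measured binding site. Matches of different motifs searched here overlapped in 1 of the 32851 promoters.

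Most genes of serine and folate metabolism, which supplies carbon units for nucleotides, were lower. In this list of 22 tested members 15 were lower and 0 higher, with a median log2 difference of -1.11, and clones 1 and 5 gave medians of -1.21 for clone 1 and -1.04 for clone 5. Phgdh, the enzyme that commits glycolytic carbon to serine, was at 16.9 and 15.9 CPM in clone 1 and 39.7 and 38.6 CPM in clone 5 of shOgdh346, against 143 and 132 CPM in clone 2 and 189.8 and 198 CPM in clone 7 of the control (log2 difference -2.59, SE 0.66, adjusted p = 0.0471). Aldh1l2, a mitochondrial folate dehydrogenase, was at 0.919 and 1.15 CPM in clone 1 and 1.01 and 1.44 CPM in clone 5 of shOgdh346, against 3.26 and 3.43 CPM in clone 2 and 14.3 and 12.9 CPM in clone 7 of the control (log2 difference -2.94, SE 0.72, adjusted p = 0.0402). In both genes the groups did not overlap, and control clone 7 was above control clone 2. Mthfd1, Shmt1, Psat1 and Mthfd2, enzymes of serine synthesis and folate interconversion, differed by -1.04, -1.26, -1.81 and -1.50 on the log2 scale. The Phgdh call was lost without the filter on low counts, in libraries numbered 1 alone, and without either the first library of control clone 2 or that of control clone 7 (adjusted p up to 0.219). Aldh1l2 lost its call in the fit without shOgdh2081 (adjusted p = 0.0654).

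Cytosolic aminoacyl-tRNA synthetases, which charge tRNAs and are in part ATF4 targets, were also lower in part: of 20 tested members 11 were lower and 0 higher, with a median log2 difference of -0.80. Cars, for cysteine, ran from 44.1 to 51.5 CPM with shOgdh346 and 108 to 122 CPM in the control (log2 difference -1.31, SE 0.10, adjusted p = 0.0104). Yars, for tyrosine, ran from 63.9 to 77.8 CPM with shOgdh346 and 168 to 176 CPM in the control (log2 difference -1.28, SE 0.11, adjusted p = 0.0106). Every tested synthetase had a negative difference, from -1.31 to -0.18.

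Genes of DNA replication and cell division were lower throughout most of their lists. For DNA replication and G1/S, of 48 tested members 42 were lower and 0 higher, with a median log2 difference of -1.16, and 6 were not called. Mcm7, a subunit of the replicative helicase, was at 132 and 146 CPM in clone 1 and 175 and 176 CPM in clone 5 of shOgdh346, against 483 and 495 CPM in clone 2 and 467 and 494 CPM in clone 7 of the control (log2 difference -1.64, SE 0.15, adjusted p = 0.0106). Cdc6, which loads that helicase, ran from 43.7 to 50.5 CPM with shOgdh346 and 119.9 to 137 CPM in the control (log2 difference -1.45, SE 0.12, adjusted p = 0.0104). Hells, a chromatin remodeller of S phase, ran from 78.6 to 95.9 CPM with shOgdh346 and 205 to 239 CPM in the control (log2 difference -1.37, SE 0.12, adjusted p = 0.0104). In all of them the clones of a hairpin lay close together and the groups apart. The medians of the list were -1.18 for clone 1 and -1.10 for clone 5.

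E2F factors, which switch on this set at the entry to S phase, bind TTTCCCGC, searched on both strands. The letters occurred in 1.07% of 32851 promoters and at 1.24% of 27025 genes, against 8 of 37 matched replication genes (21.6%) and 7 of 32 matched ones that were lower. The windows of Mcm7, Cdc6, Hells and Brca2 (log2 difference -1.75, adjusted p = 0.0198) are given as examples, in capitals as TTTCCCGC or its reverse complement GCGGGAAA.
Mcm7, chr5:138172015-138172074, minus strand: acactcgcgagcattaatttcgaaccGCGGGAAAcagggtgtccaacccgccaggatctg
Cdc6, chr11:98907987-98908046, plus strand: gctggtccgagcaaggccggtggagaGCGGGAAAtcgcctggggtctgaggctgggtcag
Hells, chr19:38930902-38930961, plus strand: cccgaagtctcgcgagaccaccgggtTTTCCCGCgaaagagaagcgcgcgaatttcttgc
Brca2, chr5:150522427-150522486, plus strand: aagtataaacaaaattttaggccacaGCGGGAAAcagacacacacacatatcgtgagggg

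For mitosis and G2/M, of 51 tested members 36 were lower and 0 higher, with a median log2 difference of -0.90. Ccna2, cyclin A2, was at 92.5 and 92.4 CPM in clone 1 and 96.8 and 88.04 CPM in clone 5 of shOgdh346, against 215 and 208 CPM in clone 2 and 223 and 208 CPM in clone 7 of the control (log2 difference -1.22, SE 0.10, adjusted p = 0.0104). Cenpf, a kinetochore protein, differed by -1.45 (adjusted p = 0.0104) and Ccnb1, cyclin B1, by -1.11 (adjusted p = 0.0105). No library of these genes crossed between the groups.

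In purine and pyrimidine synthesis, of 30 tested members 20 were lower and 0 higher, with a median log2 difference of -0.95. Dut, which removes dUTP, ran from 76.1 to 83.3 CPM with shOgdh346 and 188 to 196 CPM in the control (log2 difference -1.30, SE 0.09, adjusted p = 0.0101). Tk1, thymidine kinase, ran from 49.6 to 51.98 CPM with shOgdh346 and 126 to 142 CPM in the control (log2 difference -1.41, SE 0.11, adjusted p = 0.0104). Pfas and Umps, of purine and pyrimidine synthesis, were lower by similar amounts, at -1.12 and -1.09. For ribosome biogenesis and MYC, of 47 tested members 32 were lower and 1 higher, with a median log2 difference of -0.65. The gene that was higher was Mxd1, which encodes an antagonist of MYC, at 124 and 127 CPM in clone 1 and 103 and 104 CPM in clone 5 of shOgdh346, against 40.1 and 37.5 CPM in clone 2 and 35.3 and 33.9 CPM in clone 7 of the control (log2 difference 1.62, SE 0.14, adjusted p = 0.0105). All of its shOgdh346 libraries lay above the control. Myc ran from 163 to 203 CPM with shOgdh346 and 199 to 272 CPM in the control and was not called (log2 difference -0.36, adjusted p = 0.194). Cytosolic ribosomal protein genes had a median of -0.32, with 8 of 49 lower and 0 higher, beside 11.5% and 11.3% of all genes tested.

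Most cholesterol synthesis genes were lower, and the list median was below 0 before induction too: of 24 tested members 16 were lower and 0 higher, with a median log2 difference of -0.79, and the day 0 median of the same list was -0.35. Mvk, mevalonate kinase, was at 10.1 and 11.3 CPM in clone 1 and 14.1 and 10.7 CPM in clone 5 of shOgdh346, against 35.3 and 33.6 CPM in clone 2 and 36.8 and 31.4 CPM in clone 7 of the control (log2 difference -1.56, SE 0.20, adjusted p = 0.0141). Stard4, a sterol carrier, ran from 79.6 to 86.3 CPM with shOgdh346 and 143 to 158 CPM in the control (log2 difference -0.86, SE 0.13, adjusted p = 0.0163). Cyp51, lanosterol demethylase, ran from 56.1 to 70.2 CPM with shOgdh346 and 134 to 162 CPM in the control (log2 difference -1.30, SE 0.19, adjusted p = 0.0164). The groups did not overlap. The change from day 0 beyond the control was called lower for 11 members, with a median of -0.47. The sterol element TCACNCCAC occurred in 1.24% of the promoters and in 1 of 17 matched members, Hmgcs1.

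NRF2 targets were higher in part. Of 21 tested NRF2 and glutathione genes 5 were higher and 0 lower, beside 11.3% and 11.5% of all genes tested. The median was 0.37, or 0.14 without control clone 2. Hmox1, heme oxygenase, which opens the heme ring, was at 115 and 108 CPM in clone 1 and 193 and 185 CPM in clone 5 of shOgdh346, against 18.3 and 19.1 CPM in clone 2 and 18.7 and 18.8 CPM in clone 7 of the control (log2 difference 2.99, SE 0.28, adjusted p = 0.0108). G6pdx, the entry enzyme of the pentose phosphate pathway and a source of NADPH, ran from 655 to 792 CPM with shOgdh346 and 323 to 397 CPM in the control (log2 difference 1.01, SE 0.13, adjusted p = 0.0142). Nqo1, a quinone reductase, ran from 1.28 to 2.74 CPM with shOgdh346 and 0.101 to 0.421 CPM in the control (log2 difference 3.03, SE 0.52, adjusted p = 0.0198). In the 3 genes the shOgdh346 libraries lay above the control, with clone 5 above clone 1 for Hmox1.

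Iron and heme genes went both ways. The ferritin chains Fth1 (1.51, adjusted p = 0.0244) and Ftl1 (1.26, adjusted p = 0.0339) were higher along with Hmox1. Enzymes of heme synthesis, which starts from the succinyl-CoA that the Ogdh complex makes, were among the lower ones: Cpox at 3.81 and 5.47 CPM in clone 1 and 8.38 and 8.99 CPM in clone 5 of shOgdh346, against 18.2 and 19.8 CPM in clone 2 and 19.9 and 19.8 CPM in clone 7 of the control (log2 difference -1.55, SE 0.33, adjusted p = 0.0296) and Alad at -0.79 (adjusted p = 0.0434). Cpox libraries with shOgdh346 were all below the control, clone 1 lowest. In this list 3 of 19 tested members were higher and 4 lower, beside 11.3% and 11.5% of all genes tested. The median was 0.10, or -0.0267 on total counts without scaling and 0.0292 without shOgdh346 clone 1.

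Targets of hypoxia-inducible factor, whose prolyl hydroxylases use 2-oxoglutarate, were higher in 6 of 20 tested members and lower in 0, with a median of 0.49. Ankrd37 was at 9.71 and 10.6 CPM in clone 1 and 7.84 and 5.33 CPM in clone 5 of shOgdh346, against 1.90 and 2.22 CPM in clone 2 and 3.25 and 1.72 CPM in clone 7 of the control (log2 difference 1.88, SE 0.30, adjusted p = 0.0178). Ndrg1 ran from 50.2 to 57.1 CPM with shOgdh346 and 19.9 to 29.1 CPM in the control (log2 difference 1.10, SE 0.16, adjusted p = 0.0164). P4ha1, a collagen prolyl hydroxylase, ran from 209 to 246 CPM with shOgdh346 and 82.02 to 106 CPM in the control (log2 difference 1.24, SE 0.27, adjusted p = 0.033). All 3 were separated from the control, whereas Hif1a overlapped (0.10, adjusted p = 0.596). In glycolysis, of 23 tested members 1 was lower and 4 higher, with a median log2 difference of 0.34 (0.20 without control clone 2), beside 11.5% and 11.3% of all genes tested. Slc2a1, the main glucose importer of growing cells, ran from 127 to 172 CPM with shOgdh346 and 69.7 to 87.2 CPM in the control (log2 difference 0.90, SE 0.22, adjusted p = 0.0393). Pkm, pyruvate kinase, ran from 3191 to 3449 CPM with shOgdh346 and 1880 to 2189 CPM in the control (log2 difference 0.68, SE 0.15, adjusted p = 0.029). Slc16a1, a monocarboxylate carrier, was lower (-0.93, adjusted p = 0.026).

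Of the 2-oxoglutarate-dependent dioxygenases, 6 of 36 were higher and 2 lower, beside 11.3% and 11.5% of all genes, with a median of 0.05, or -0.0735 on total counts without scaling, -0.0116 without control clone 2 and -0.0161 without shOgdh346 clone 5. Kdm6b, which demethylates histone H3 at lysine 27, was at 146 and 175 CPM in clone 1 and 119 and 124 CPM in clone 5 of shOgdh346, against 63.9 and 52.2 CPM in clone 2 and 52.5 and 54.4 CPM in clone 7 of the control (log2 difference 1.33, SE 0.16, adjusted p = 0.0124). Kdm7a ran from 126 to 149.6 CPM with shOgdh346 and 34.1 to 63.2 CPM in the control (log2 difference 1.43, SE 0.31, adjusted p = 0.0328), and Fto, an RNA demethylase, from 45.8 to 51.95 CPM with shOgdh346 and 68.01 to 73.2 CPM in the control (log2 difference -0.54, SE 0.11, adjusted p = 0.0263). For the 3 genes the groups did not overlap. Without the filter on low counts the calls of P4ha1 (adjusted p = 0.0666) and Kdm7a (adjusted p = 0.119) ended.

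Inhibitors of the cell cycle and targets of p53 were higher in 6 of 24 tested members and lower in 1. Of all genes tested 11.3% were higher and 11.5% lower. The list median was 0.57, or 0.95 without control clone 2. Trp53inp1 was at 157 and 137 CPM in clone 1 and 102 and 111 CPM in clone 5 of shOgdh346, against 24.5 and 21.3 CPM in clone 2 and 22.6 and 18.9 CPM in clone 7 of the control (log2 difference 2.50, SE 0.20, adjusted p = 0.0104). Cdkn1a, the p21 inhibitor of cyclin-dependent kinases, was at 400.2 and 416 CPM in clone 1 and 275 and 286 CPM in clone 5 of shOgdh346, against 157 and 163 CPM in clone 2 and 109 and 104 CPM in clone 7 of the control (log2 difference 1.35, SE 0.30, adjusted p = 0.0343). Mdm2, the ligase that limits p53, ran from 200.2 to 239 CPM with shOgdh346 and 96.02 to 106 CPM in the control (log2 difference 1.06, SE 0.15, adjusted p = 0.0153). These genes were higher in each shOgdh346 library, while Trp53 itself was lower (-0.57, adjusted p = 0.0216). In the BCL2 family 5 of 15 members were higher and 0 lower, on both sides of the family: Bcl2l11, the death-promoting BIM, at 90.3 to 119.6 CPM with shOgdh346 and 24.9 to 29.8 CPM in the control (log2 difference 1.96, SE 0.30, adjusted p = 0.0174), and the protective Bcl2l1 and Mcl1 at 1.48 (adjusted p = 0.0155) and 0.66 (adjusted p = 0.0298).

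Immediate early factors were higher in part. In the AP-1 and EGR list, of 20 tested members 1 was lower and 9 higher, with a median log2 difference of 1.21. Egr1 was at 209 and 240.4 CPM in clone 1 and 90.9 and 104 CPM in clone 5 of shOgdh346, against 4.74 and 6.05 CPM in clone 2 and 3.46 and 2.18 CPM in clone 7 of the control (log2 difference 5.27, SE 0.85, adjusted p = 0.0197). Jun was at 27.03 and 36.5 CPM in clone 1 and 31.7 and 34.8 CPM in clone 5 of shOgdh346, against 5.26 and 6.86 CPM in clone 2 and 7.87 and 8.59 CPM in clone 7 of the control (log2 difference 2.18, SE 0.38, adjusted p = 0.0209). Both were above the control in each library, with Egr1 higher in clone 1. Fos was not called (1.27, adjusted p = 0.275), with clone 5 high and clone 1 within the range of the control. Bach1, a repressor of Hmox1 and other NRF2 targets, ran from 226 to 361 CPM with shOgdh346 and 90.6 to 97.9 CPM in the control (log2 difference 1.61, SE 0.23, adjusted p = 0.0158). Feedback genes of the RAS-ERK path were mixed (4 higher and 2 lower of 18, beside 11.3% and 11.5% of all genes tested), with Dusp5 at 1.52 (adjusted p = 0.0233) and Dusp6 at 1.52 (adjusted p = 0.0439). Nras, whose mutant form drives these cells, ran from 1118 to 1331 CPM with shOgdh346 and 636 to 741 CPM in the control (log2 difference 0.84, SE 0.14, adjusted p = 0.0196); counts per gene do not tell the mutant from the endogenous transcript. Without the filter on low counts the Egr1 call ended (adjusted p = 0.091).

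**Figure D2:**
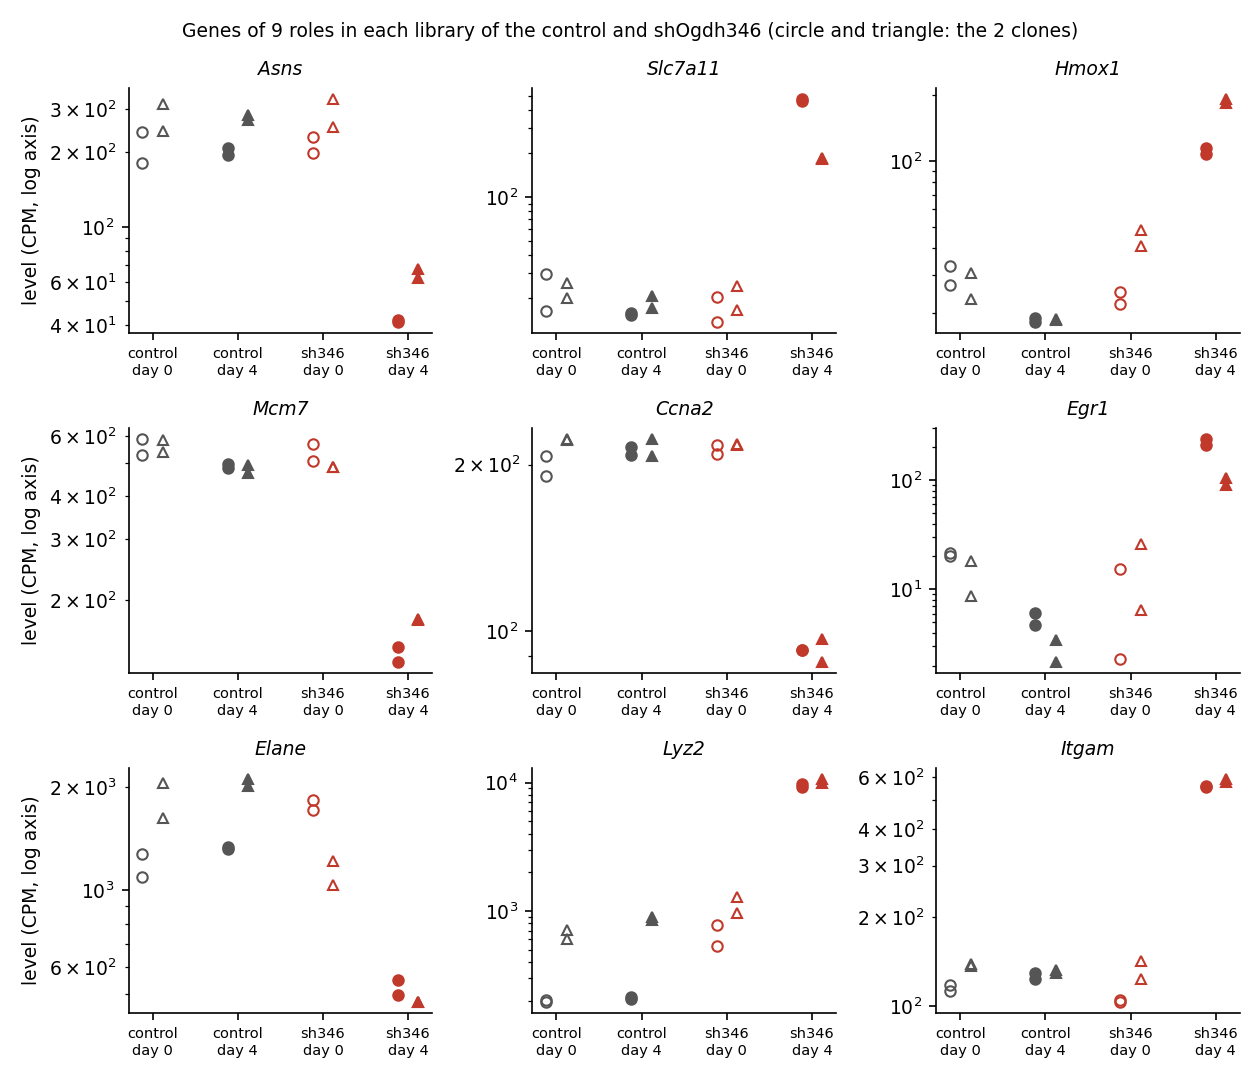
Level in CPM (log axis) of 9 genes in each library of the control and of shOgdh346 at day 0 (open) and day 4 (filled); circles and triangles are the clones of a hairpin. In each panel the shOgdh346 libraries at day 4 stand apart from the control at day 4, above it for Slc7a11, Hmox1, Egr1, Lyz2 and Itgam and below it for Asns, Mcm7, Ccna2 and Elane.

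The labelled cell type was checked against its markers. All 12 markers of myeloid progenitors were tested, and their summed level was 4861 to 5115 CPM with shOgdh346 and 10720 to 12370 CPM in the control. Most of that gap lay in Mpo, Ctsg and Elane: the other 9 markers summed to 3343 to 3416 CPM with shOgdh346 and 3482 to 3777 CPM in the control. Ptprc, Itgam and Spi1 were called higher and Ctsg and Elane lower, while Kit ran from 82.4 to 91.9 CPM with shOgdh346 and 182 to 366 CPM in the control (log2 difference -1.70, SE 0.48, adjusted p = 0.0608). Markers of other cell types were few: 1 of 8 B cell genes, 1 of 10 T and NK cell genes and 1 of 8 erythroid genes passed the filter on low counts, and 0 were called. The summed level of B cell genes was 1.18 and 1.32 CPM in clone 1 and 15 and 13.5 CPM in clone 5 of shOgdh346, and 0.420 to 0.916 CPM in the control. The 1 tested B cell gene was only 0.54 above the control in clone 5 on the log2 scale. Most of the clone 5 sum therefore came from genes that were not tested and could not be called. The summed levels were 0.878 to 1.44 CPM with shOgdh346 and 0.105 to 1.01 CPM in the control for T and NK cells. For erythroid cells they were 0.743 to 1.71 CPM with shOgdh346 and 0.801 to 1.21 CPM in the control. Ms4a1, Pax5, Blk, Cd3e, Cd3g, Ncr1, Gzma, Hba-a2 and Hbb-bs had 0 counts in all 8 libraries.

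Some markers of other types were higher with shOgdh346. Of 8 platelet genes 4 were tested and 2 higher (summed level 29.3 to 58.2 CPM with shOgdh346 and 2.86 to 8.58 CPM in the control), namely Gp1bb (4.47) and Vwf (4.77, also an endothelial marker). Of 8 mast cell, basophil and eosinophil genes 5 were tested and 1 higher (summed level 83.99 to 131 CPM with shOgdh346 and 27.4 to 32.1 CPM in the control, with Fcer1a, Epx and Tpsb2 at 0), namely Cpa3 (4.90). Of 8 dendritic cell genes 4 were tested and 1 higher (summed level 37.9 to 44.1 CPM with shOgdh346 and 2.93 to 11.2 CPM in the control), namely Cd74 (4.02). Flt3 of the same list ran from 0.135 to 0.530 CPM with shOgdh346 and 0.706 to 4.83 CPM in the control (log2 difference -3.02, SE 0.97, adjusted p = 0.0771). Its net change from day 0 was called lower (-5.004, adjusted p = 0.000298), with clone 1 of shOgdh346 high at day 0 (32.5 and 44.7 CPM). Of 8 stromal genes 2 were tested and 1 higher (summed level 16.7 to 23.5 CPM with shOgdh346 and 5.25 to 22.8 CPM in the control, with Col1a2, Col3a1, Dcn, Lum and Cxcl12 at 0), namely Col1a1 (4.96). Endothelial markers summed to 255 to 402 CPM with shOgdh346 and 283 to 335 CPM in the control, with Kdr, Emcn and Cldn5 at 0. Their part in the gene groups that follow was not tested. In such bulk RNA, fewer cells of a type and less RNA per cell cannot be told apart.

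Genes of secondary and tertiary neutrophil granules were mostly higher, and those of primary granules, which are made first in maturation, went both ways. For secondary and tertiary granules, of 24 tested members 0 were lower and 17 higher, with a median log2 difference of 3.40. Clone 1 gave a median of 3.34 and clone 5 of 2.64 against the control, from CPM ratios and not from the fit. Itgam, the CD11b chain of the CR3 integrin, was at 556 and 558 CPM in clone 1 and 579 and 592 CPM in clone 5 of shOgdh346, against 129.5 and 123 CPM in clone 2 and 132 and 129 CPM in clone 7 of the control (log2 difference 2.13, SE 0.15, adjusted p = 0.0101). Its partner Itgb2, CD18, ran from 1830 to 2185 CPM with shOgdh346 and 606 to 730.0 CPM in the control (log2 difference 1.58, SE 0.13, adjusted p = 0.0104). Within each hairpin these values were tight, and the groups lay apart.

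Ltf, lactoferrin of secondary granules, was at 1534 and 1745 CPM in clone 1 and 349 and 344 CPM in clone 5 of shOgdh346, against 1.90 and 3.53 CPM in clone 2 and 16.5 and 21.9 CPM in clone 7 of the control (log2 difference 6.50, SE 1.57, adjusted p = 0.0419). Ngp, a neutrophil granule protein, was at 3680 and 3770 CPM in clone 1 and 3262 and 3260 CPM in clone 5 of shOgdh346, against 16.8 and 19.1 CPM in clone 2 and 80.3 and 86.3 CPM in clone 7 of the control (log2 difference 6.09, SE 1.39, adjusted p = 0.0369). Mmp9, gelatinase B of tertiary granules, was at 378 and 452 CPM in clone 1 and 46.1 and 52.4 CPM in clone 5 of shOgdh346, against 1.26 and 1.01 CPM in clone 2 and 1.26 and 0.916 CPM in clone 7 of the control (log2 difference 7.69, SE 1.79, adjusted p = 0.0384). The shOgdh346 libraries were above the control in each, with clone 1 above clone 5 for Ltf and Mmp9. Lcn2, lipocalin 2, which withholds iron from bacteria, ran from 541 to 953 CPM with shOgdh346 and 1.79 to 22.1 CPM in the control (log2 difference 6.07, SE 1.13, adjusted p = 0.0246). Olfm4, a glycoprotein of a neutrophil subset, ran from 5199 to 7728 CPM with shOgdh346 and 12.9 to 121 CPM in the control (log2 difference 6.59, SE 1.27, adjusted p = 0.026). Control clone 7 was above control clone 2 for Ltf, Ngp, Lcn2 and Olfm4.

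Among primary granule genes, of 16 tested members 4 were lower and 2 higher. Of all genes tested 11.5% were lower and 11.3% higher, so the share higher was near that of all genes. The median log2 difference of the list was -0.56, or -0.28 without control clone 2. Elane, neutrophil elastase, was at 496 and 549.9 CPM in clone 1 and 476 and 475 CPM in clone 5 of shOgdh346, against 1316 and 1336 CPM in clone 2 and 2015 and 2114 CPM in clone 7 of the control (log2 difference -1.78, SE 0.24, adjusted p = 0.0154). Ctsg, cathepsin G, was at 572 and 554 CPM in clone 1 and 709 and 647 CPM in clone 5 of shOgdh346, against 2533 and 2425 CPM in clone 2 and 2381 and 2284 CPM in clone 7 of the control (log2 difference -1.97, SE 0.18, adjusted p = 0.0106). Mpo, myeloperoxidase, was at 483 and 659 CPM in clone 1 and 330.3 and 395 CPM in clone 5 of shOgdh346, against 4078 and 4897 CPM in clone 2 and 2837 and 3328 CPM in clone 7 of the control (log2 difference -3.02, SE 0.94, adjusted p = 0.075). The 3 genes lay below the control in each shOgdh346 library, and Mpo did not pass the threshold. Lyz2, lysozyme, was at 9674 and 9156 CPM in clone 1 and 10730 and 9873 CPM in clone 5 of shOgdh346, against 212 and 208 CPM in clone 2 and 905 and 843 CPM in clone 7 of the control (log2 difference 4.16, SE 0.86, adjusted p = 0.0296), above the control in every library. Lyz1 and Lyz2 are near-identical copies, so the split of reads between them is uncertain.

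S100 and stefin genes were higher in part: of 16 tested members 0 were lower and 9 higher, with a median log2 difference of 3.01. S100a9, a chain of calprotectin, was at 24339 and 23430 CPM in clone 1 and 9909 and 9061 CPM in clone 5 of shOgdh346, against 79.9 and 78.5 CPM in clone 2 and 513 and 494 CPM in clone 7 of the control (log2 difference 5.81, SE 1.13, adjusted p = 0.0265). S100a8, the other chain, was at 13211 and 13198 CPM in clone 1 and 6301 and 5651 CPM in clone 5 of shOgdh346, against 161 and 163 CPM in clone 2 and 665 and 652 CPM in clone 7 of the control (log2 difference 4.53, SE 0.86, adjusted p = 0.0257). Clone 1 was above clone 5 and both above the control for these genes. Stfa2 and Stfa2l1, stefins that inhibit cysteine proteases, were at 8.62 (adjusted p = 0.012) and 6.76 (adjusted p = 0.0181), but stefin genes are near-identical copies and their single values are uncertain.

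In the list of monocyte and macrophage genes, of 32 tested members 0 were lower and 10 higher, with a median log2 difference of 1.87 (0.94 without shOgdh346 clone 5), and clones 1 and 5 gave medians of 1.10 for clone 1 and 2.52 for clone 5. Fcgr4, an activating Fc receptor, ran from 167 to 198 CPM with shOgdh346 and 18.9 to 26.03 CPM in the control (log2 difference 3.05, SE 0.20, adjusted p = 0.0101). Ccl6, a chemokine, was at 144 and 139 CPM in clone 1 and 118 and 108 CPM in clone 5 of shOgdh346, against 3.47 and 3.03 CPM in clone 2 and 9.45 and 8.24 CPM in clone 7 of the control (log2 difference 4.38, SE 0.47, adjusted p = 0.0124). Lgals3, galectin 3, was at 177 and 178 CPM in clone 1 and 390.2 and 365 CPM in clone 5 of shOgdh346, against 15.3 and 13.2 CPM in clone 2 and 35.1 and 31.9 CPM in clone 7 of the control (log2 difference 3.53, SE 0.58, adjusted p = 0.0204). All lay above the control, with clone 5 above clone 1 for Lgals3. Gpnmb, Msr1 and Mrc1, a lysosomal glycoprotein and 2 scavenger receptors of macrophages, differed by 6.28, 4.16 and 3.03 on the log2 scale (adjusted p = 0.0344, 0.0304 and 0.03).

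Receptors for chemoattractants were higher in 6 of 12 tested members and lower in 0, with a median of 2.89. C5ar1, the receptor of complement C5a, was at 69.6 and 65.7 CPM in clone 1 and 49.2 and 59.8 CPM in clone 5 of shOgdh346, against 0.105 and 0.303 CPM in clone 2 and 1.78 and 1.37 CPM in clone 7 of the control (log2 difference 6.05, SE 0.78, adjusted p = 0.0152). Ccr1 ran from 146 to 226 CPM with shOgdh346 and 28.01 to 34.3 CPM in the control (log2 difference 2.53, SE 0.38, adjusted p = 0.0176). Neither overlapped with the control. Toll-like receptor and interleukin 1 genes were higher in 8 of 21 and lower in 0 (median 1.03, or 1.67 without control clone 7). Il1rn, the interleukin 1 receptor antagonist, was at 191 and 177 CPM in clone 1 and 109.8 and 104 CPM in clone 5 of shOgdh346, against 2.74 and 3.63 CPM in clone 2 and 2.20 and 2.52 CPM in clone 7 of the control (log2 difference 5.68, SE 0.60, adjusted p = 0.012). Il1b, the cytokine, was at 17.6 and 19.1 CPM in clone 1 and 3.65 and 3.22 CPM in clone 5 of shOgdh346, against 0.421 and 0 CPM in clone 2 and 0.105 and 0.343 CPM in clone 7 of the control (log2 difference 5.63, SE 1.38, adjusted p = 0.0433). Cd14, a lipopolysaccharide co-receptor, differed by 2.71 (adjusted p = 0.0357) and Tlr4 by 0.89 (adjusted p = 0.0183).

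The phagocyte NADPH oxidase, which makes superoxide, was higher in 5 of 6 tested subunits (median 0.82). Ncf1, its p47 organiser, ran from 974 to 1211 CPM with shOgdh346 and 429.5 to 492 CPM in the control (log2 difference 1.23, SE 0.14, adjusted p = 0.0124). Cyba, its membrane chain, ran from 404 to 428 CPM with shOgdh346 and 218 to 235 CPM in the control (log2 difference 0.85, SE 0.10, adjusted p = 0.0127). Lysosome genes were higher in 10 of 30 and lower in 0 (median 0.80, or 0.46 without shOgdh346 clone 5), with the autophagy receptor Sqstm1 at 1.403 (adjusted p = 0.0104) and the protease Ctsd at 2.41 (adjusted p = 0.0414). Interferon-stimulated genes were higher in 7 of 19 and lower in 1 (median 1.34, or 0.79 without shOgdh346 clone 5), led by the antiviral 2-5A synthetases Oas3 (3.53, adjusted p = 0.012) and Oas2 (3.55, adjusted p = 0.0135), while Ifit2 was lower (-1.15). For MHC class I presentation 1 of 17 was higher and 4 lower, beside 11.3% and 11.5% of all genes tested. The median was -0.12, or 0.21 without control clone 7, 0.20 without shOgdh346 clone 1 and -0.57 without shOgdh346 clone 5. The lower ones included the immunoproteasome subunits Psmb8, Psmb9 and Psmb10 at -0.82, -1.03 and -1.01.

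Transcription factors of myeloid maturation were higher in 9 of 25 tested members and lower in 0 (median 0.62). Of all genes tested 11.3% were higher and 11.5% lower. Spi1, PU.1, ran from 382 to 397 CPM with shOgdh346 and 239.5 to 266 CPM in the control (log2 difference 0.62, SE 0.10, adjusted p = 0.0174). Cebpe, which drives secondary granule genes, was at 292 and 319 CPM in clone 1 and 244 and 249 CPM in clone 5 of shOgdh346, against 159 and 165 CPM in clone 2 and 124 and 122 CPM in clone 7 of the control (log2 difference 0.94, SE 0.18, adjusted p = 0.0238). Klf6 and Klf2 differed by 2.64 and 2.37 on the log2 scale. Spi1, Cebpe and Klf6 did not overlap with the control. Cebpa overlapped and was at -0.82 (adjusted p = 0.256). Maf, a macrophage factor with 0 counts in the control libraries, was not called (adjusted p = 0.0505). Over both clones it was at least 86-fold higher against a floor of 3 counts over the group. This bound rests mostly on clone 5 of shOgdh346, at 10.6 and 13.2 CPM, against 0.525 and 1.15 CPM in clone 1.

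Self-renewal genes of MLL leukaemia were lower in 6 of 25 tested members and higher in 1, beside 11.5% and 11.3% of all genes tested. The median was -0.37, or -0.18 without control clone 2, -0.56 without control clone 7 and -0.63 without shOgdh346 clone 1. Hoxa9 and Meis1, core targets of MLL fusions, were not called, at 123 to 220.4 CPM with shOgdh346 and 96.2 to 219.8 CPM in the control (log2 difference 0.11, SE 0.43, adjusted p = 0.862) and at 36.01 to 43.1 CPM with shOgdh346 and 44.4 to 51.1 CPM in the control (log2 difference -0.29, SE 0.17, adjusted p = 0.248). Men1 and Psip1, cofactors that hold MLL on chromatin, were at -0.62 (adjusted p = 0.0186) and -0.78 (adjusted p = 0.015). Hmgb3 ran from 14.03 to 19.6 CPM with shOgdh346 and 50.7 to 52.7 CPM in the control (log2 difference -1.66, SE 0.12, adjusted p = 0.0101). Sox4, a factor of progenitors, was higher at 92.1 and 98.6 CPM in clone 1 and 93.7 and 89.9 CPM in clone 5 of shOgdh346, against 54.3 and 51.2 CPM in clone 2 and 49.95 and 47.6 CPM in clone 7 of the control (log2 difference 0.87, SE 0.09, adjusted p = 0.012). The last 4 genes did not overlap between the hairpins. Without the filter on low counts the calls of Lyz2 (adjusted p = 0.147), Lgals3 (adjusted p = 0.0949), C5ar1 (adjusted p = 0.0529), Ccr1 (adjusted p = 0.0678), Klf6 (adjusted p = 0.0959) and Cpa3 (adjusted p = 0.195) ended.

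**Figure D3:**
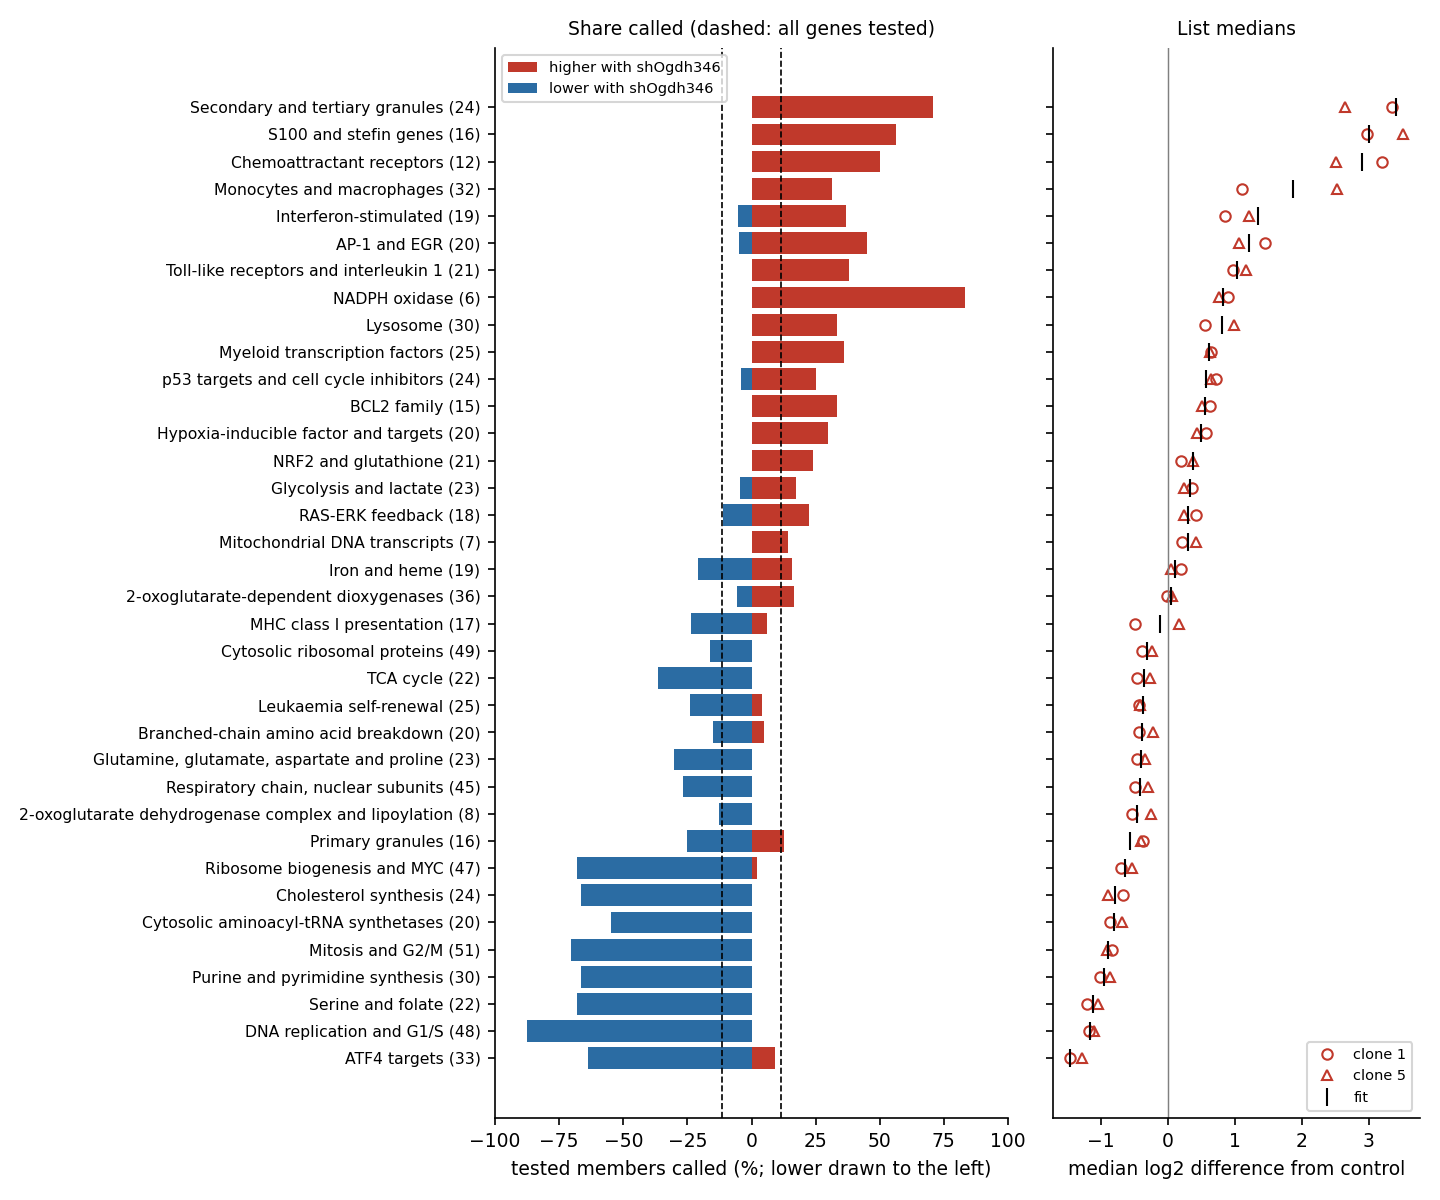
Left, percent of tested members of each of 36 gene lists that were called higher (right of 0) or lower (left of 0) with shOgdh346 at day 4, with dashed lines at the 11.3% and 11.5% of all genes tested and the number of tested members in brackets. Right, median log2 difference from the control in the fit (bar) and for clone 1 (circle) and clone 5 (triangle) alone. Clone values are from CPM ratios with 0.1 CPM added, averaged over the control clones, so the bar need not lie between them. Replication and ATF4 lists lie at the low end, and granule and S100 lists at the high end with medians of 3.40 and 3.01.

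The genes with the largest called rises, among those with at least 5 CPM in the higher group and no overlap of libraries, were Retnlg, Stfa2, Slc2a3, Fpr2, Mmp9, Ankrd22, Anpep, Clec4b2, Akr1c21, Chil3, Nrp1, Abca1, Stfa2l1, Olfm4 and Ltf. Their non-overlap and size are part of how they were chosen. Retnlg, a resistin-like neutrophil protein (chromosome 16, 48872608 to 48874498), was at 61.4 and 61.8 CPM in clone 1 and 3.45 and 4.55 CPM in clone 5 of shOgdh346, against 0 and 0 CPM in clone 2 and 0.105 and 0 CPM in clone 7 of the control (adjusted p = 0.0294). Slc2a3, the glucose transporter GLUT3 (chromosome 6, 122727809 to 122801640), was at 279 and 290.5 CPM in clone 1 and 24.4 and 21.8 CPM in clone 5 of shOgdh346, against 0 and 0.101 CPM in clone 2 and 0.840 and 0.801 CPM in clone 7 of the control (log2 difference 8.45, SE 1.70, adjusted p = 0.0281). Clone 1 was 15.4-fold and 12.3-fold above clone 5, and both clones lay above the control.

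For 6 genes the control group held 1 to 3 counts in all, so that the ratio rests on these. The ratio of shOgdh346 to control was 1110 (95% counting interval 199 to 43900) for Retnlg and 255 (95% counting interval 70.3 to 2110) for Fpr2, a formyl peptide receptor. It was 181 (95% counting interval 49.9 to 1500) for Ankrd22 and 144 (95% counting interval 39.7 to 1200) for Akr1c21, an aldo-keto reductase. For Anpep, aminopeptidase N, it was 189 (95% counting interval 64.3 to 918), and for Abca1, the cholesterol exporter, 134 (95% counting interval 36.9 to 1110). Intervals cover counting error alone. Anpep was at 2.62 and 0.971 CPM in clone 1 and 25.6 and 25.9 CPM in clone 5 of shOgdh346, against 0.105 and 0 CPM in clone 2 and 0 and 0.229 CPM in clone 7 of the control. Abca1 was at 1.05 and 0.706 CPM in clone 1 and 11.4 and 13.3 CPM in clone 5 of shOgdh346, against 0 and 0 CPM in clone 2 and 0 and 0.229 CPM in clone 7 of the control. In these genes clone 5 was far above clone 1, the opposite order to Retnlg and Slc2a3.

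Chil3, a chitinase-like protein of myeloid cells with near-identical relatives, was at 1808 and 1656 CPM in clone 1 and 290.1 and 254 CPM in clone 5 of shOgdh346, against 1.68 and 2.32 CPM in clone 2 and 12.6 and 14.2 CPM in clone 7 of the control (log2 difference 6.99, SE 1.46, adjusted p = 0.0302). Clec4b2, a C-type lectin, ran from 6.89 to 41.3 CPM with shOgdh346 and 0 to 0.344 CPM in the control (log2 difference 7.30, SE 1.40, adjusted p = 0.026). Nrp1, neuropilin 1, a co-receptor of semaphorins and VEGF, was at 9.45 and 10.5 CPM in clone 1 and 14.9 and 17.3 CPM in clone 5 of shOgdh346, against 0 and 0 CPM in clone 2 and 0.315 and 0.114 CPM in clone 7 of the control (log2 difference 6.82, SE 0.97, adjusted p = 0.0162). Nrp1 was somewhat higher in clone 5 than in clone 1, whereas Chil3 was 6.37-fold above clone 5 in clone 1.

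The largest called falls under the same rule were Cth, B3gnt5, P2rx3, Ccdc149, Matk, Heg1, Slc1a4, Aldh1l2, Capn3, Phgdh, Lhfp, Mgl2, Fads2, Chrm4 and Pycr1, from -3.80 to -2.41 on the log2 scale. Of these, Cth, Slc1a4, Phgdh, Pycr1 and Aldh1l2 serve the synthesis or uptake of amino acids and folates. B3gnt5, a glycosyltransferase of lactosyl lipids (chromosome 16, 19760208 to 19772753), was at 1.57 and 1.24 CPM in clone 1 and 0.676 and 0.444 CPM in clone 5 of shOgdh346, against 14.3 and 16.4 CPM in clone 2 and 9.13 and 8.36 CPM in clone 7 of the control (log2 difference -3.65, SE 0.54, adjusted p = 0.0164). P2rx3, an ATP-gated channel, was at 1.05 and 1.59 CPM in clone 1 and 1.35 and 0.999 CPM in clone 5 of shOgdh346, against 6.11 and 5.95 CPM in clone 2 and 22.8 and 27.8 CPM in clone 7 of the control (log2 difference -3.61, SE 0.77, adjusted p = 0.0304). Matk, a kinase that restrains SRC family kinases (chromosome 10, 81252935 to 81263365), was at 4.59 and 5.30 CPM in clone 1 and 6.76 and 6.55 CPM in clone 5 of shOgdh346, against 37.4 and 42.8 CPM in clone 2 and 60.8 and 66.98 CPM in clone 7 of the control (log2 difference -3.17, SE 0.29, adjusted p = 0.0106). The shOgdh346 clones lay close to each other for P2rx3 and Matk, while control clone 7 was well above clone 2 for P2rx3.

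Fads2, a fatty acid desaturase, was at 15.9 and 17.4 CPM in clone 1 and 20.3 and 19.4 CPM in clone 5 of shOgdh346, against 93.1 and 93.5 CPM in clone 2 and 109.9 and 109 CPM in clone 7 of the control (log2 difference -2.48, SE 0.44, adjusted p = 0.0226). Pycr1, the mitochondrial enzyme that closes proline synthesis, was at 5.12 and 5.30 CPM in clone 1 and 11.3 and 8.99 CPM in clone 5 of shOgdh346, against 23.8 and 25.9 CPM in clone 2 and 56.1 and 59.1 CPM in clone 7 of the control (log2 difference -2.41, SE 0.55, adjusted p = 0.0362). Heg1, a membrane protein of cell junctions, was at 5.25 and 7.06 CPM in clone 1 and 12.3 and 14.4 CPM in clone 5 of shOgdh346, against 116 and 110.1 CPM in clone 2 and 50.4 and 45.1 CPM in clone 7 of the control (log2 difference -3.05, SE 0.58, adjusted p = 0.0255). Each was lower in all 4 shOgdh346 libraries. Mgl2, a macrophage lectin, was lower, unlike the macrophage genes above, at 3.92 to 7.41 CPM with shOgdh346 and 15.9 to 49 CPM in the control (log2 difference -2.49, SE 0.60, adjusted p = 0.042).

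**Figure D4:**
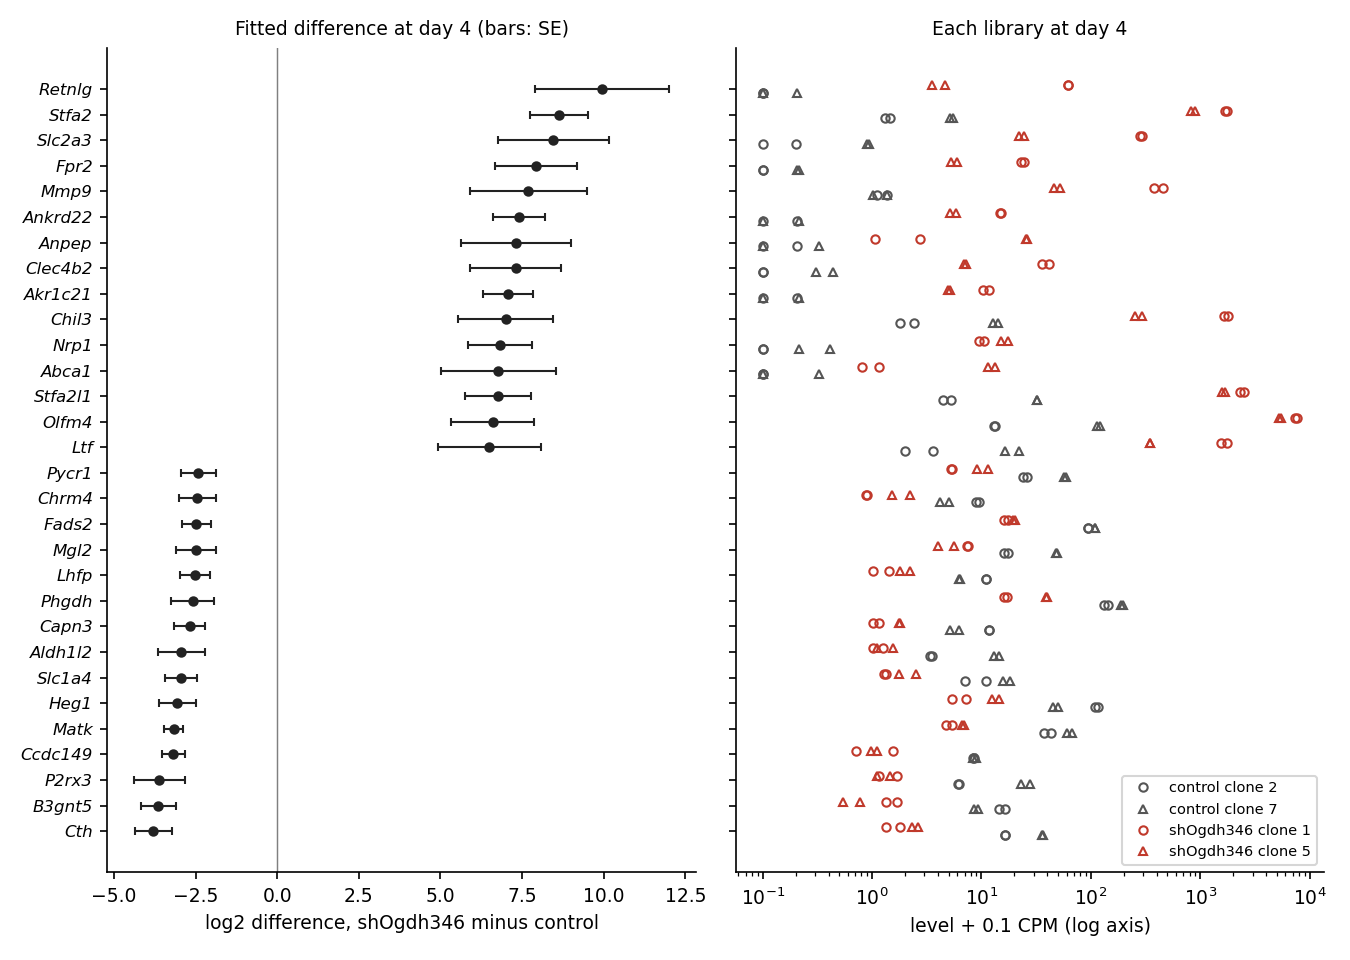
Left, fitted log2 difference of shOgdh346 from control at day 4 with its SE for the 15 largest called rises and falls under the naming rule. Right, level plus 0.1 CPM (log axis) in each library, by hairpin (colour) and clone (symbol). The rises span 6.50 to 9.95 and several show shOgdh346 clones far apart, such as Slc2a3, Mmp9 and Anpep; the falls span -3.80 to -2.41.

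Of these 30 genes and Ogdh, 13 were called in all 19 alternative fits that kept the 4 clones, 0 in each of the 4 fits without a clone, and 19 in none of those 4; all 31 kept their direction. The calls of Slc2a3, Clec4b2, Chil3, Stfa2l1, Olfm4, Ltf, Heg1 and Fads2 ended without the filter on low counts alone. Retnlg lost its call without the filter, without shOgdh2081 in the fit, in libraries numbered 2 alone, and without the first library of control clone 7, which held its 1 control count, and Chrm4 without the first library of shOgdh346 clone 5 (adjusted p up to 0.144 and 0.0517). Anpep, Mmp9, Mgl2 and Pycr1 lost it without the filter and in 1 or 2 other fits (adjusted p up to 0.173, 0.182, 0.165 and 0.14). Abca1 kept it in 6 of 14 alternatives where it was tested, losing it with RLE scaling, without the filter, without shOgdh2081 in the fit, without any 1 of the 4 control libraries and without the first of shOgdh346 clone 1 (adjusted p up to 0.197).

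Clones of a hairpin differed widely in some of the genes that were higher. Among the 1555 genes called higher, clone 1 of shOgdh346 was more than 2-fold above clone 5 in 126 and the reverse held in 41, with 0.1 CPM added to each. In the control, clone 7 was more than 2-fold above clone 2 in 105 and the reverse held in 23. Among the 1578 genes called lower these counts were 1, 8, 6 and 8. Over all 13747 genes they were 646, 555, 720 and 655.

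Before doxycycline the levels of some of these genes already lay apart. With day 0 sums, 0 of 13125 genes were called between shOgdh346 and control by edgeR (0%), 611 had an unadjusted p under 0.05, and DESeq2 called 17 higher and 37 lower. The day 4 difference was therefore also set against the day 0 difference of the same clones, with the clone as a block. This net change was called for 2339 genes higher (16.4%) and 2626 lower (18.4%) of 14249. It was called in 23 of the 31 leading genes with Ogdh and in 131 of 155 further list genes named by the rule.

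Some falls had large differences before induction, none of them called at day 0. Chrm4, a muscarinic receptor, differed by -2.30 at day 0 and -2.45 at day 4, with a net change of -0.11 (adjusted p = 0.877). Matk differed by -2.18 at day 0 and -3.17 at day 4, with a net change of -0.71 (adjusted p = 0.488). Ccdc149 differed by -1.83 at day 0 and -3.19 at day 4, with a net change of -1.26 (adjusted p = 0.144). Heg1 differed by -1.74 at day 0 and -3.05 at day 4, with a net change of -1.44 (adjusted p = 0.0545). For these 4 genes the net change was not called. Matk at day 0 was at 3.58 and 4.10 CPM in clone 1, 23.1 and 22.8 CPM in clone 5 and 49.8 and 47.997 CPM and 70.3 and 69.01 CPM in the control clones 2 and 7. The amino acid genes had day 0 differences near 0 or above it: Cth differed by -0.12 at day 0 and -3.80 at day 4, with a net change of -3.69 (adjusted p = 2.419e-05), and Aldh1l2 by 0.77 at day 0 and -2.94 at day 4, with a net change of -3.60 (adjusted p = 0.000297). Among the rises, the net change was not called for Mmp9 (6.75, adjusted p = 0.0634), Ankrd22 (6.04, adjusted p = 0.118), Anpep (4.06, adjusted p = 0.0856) and Akr1c21 (4.92, SE 46.8, adjusted p = 0.951). At day 0 Akr1c21 had 1 count in all with shOgdh346 and 0 in the control, and Ankrd22 had 4 and 1. For these 2 genes the missing call therefore does not show a difference before induction. Nrp1 differed by 2.73 at day 0 and 6.82 at day 4, with a net change of 3.80 (adjusted p = 0.0421) and Chil3 by 2.66 at day 0 and 6.99 at day 4, with a net change of 4.23 (adjusted p = 4.517e-06).

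List medians of the net change were -1.24 for ATF4 targets, -1.08 for DNA replication and -1.03 for serine and folate. They were 2.43 for secondary and tertiary granules and 3.01 for S100 and stefin genes. The net change shares its day 4 libraries with the day 4 difference. Kit (-1.21, adjusted p = 0.000907) and Mpo (-3.44, adjusted p = 0.000844) were called in the net change and not in the day 4 difference. The net change also holds the change of the control from day 0 to day 4. Mean Mpo rose from 1419 to 3785 CPM in the control and fell from 2209 to 467 CPM with shOgdh346. Igf1, a growth factor, was at 1.84 and 0.883 CPM in clone 1 and 36.8 and 37.3 CPM in clone 5 of shOgdh346, against 0 and 0 CPM in clone 2 and 0.210 and 0.229 CPM in clone 7 of the control, with a net change of 6.57 (SE 1.45, adjusted p = 0.00961) and no call at day 4. Muc13, a membrane mucin, was at 0.131 and 0.177 CPM in clone 1 and 0.270 and 0.555 CPM in clone 5 of shOgdh346, against 14.2 and 14.1 CPM in clone 2 and 2.62 and 2.18 CPM in clone 7 of the control, with a net change of -3.82 (SE 0.59, adjusted p = 0.00143). Both sets of libraries stood apart by hairpin, yet clones of a hairpin differed severalfold. From day 0 to day 4, mean Muc13 rose from 1.75 to 8.29 CPM in the control and fell from 0.77 to 0.28 CPM with shOgdh346. Igf1 and Muc13 are among the 6 largest net rises and falls, beside Retnlg, Maf, Stfa2, Il1b and Fpr2 on the rising side and Mc5r (-4.13), Cth, Aldh1l2 and Mpo on the falling side. Flt3, a receptor of progenitors, likewise had a net change of -5.004 (adjusted p = 0.000298). At day 0 Flt3 was high in 1 clone only. It was at 32.5 and 44.7 CPM in clone 1 and 2.41 and 5.09 CPM in clone 5 of shOgdh346, and 1.24 to 6.97 CPM in the control.

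**Figure D5:**
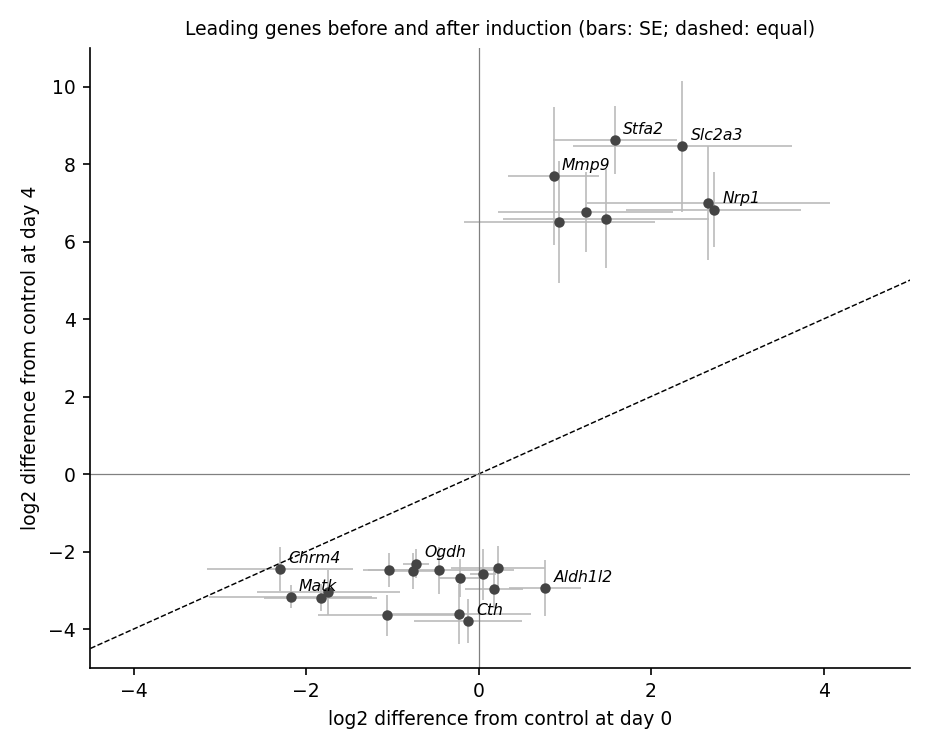
Log2 difference of shOgdh346 from control at day 0 (horizontal) and at day 4 (vertical), each with its SE, for the 24 of 31 leading genes with Ogdh that were tested at day 0; on the dashed line both are equal. Chrm4 lies near the dashed line at -2.30 and -2.45, while Cth and the rises lie far from it.

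The second Ogdh hairpin was compared with shOgdh346 at the same day. By edgeR 0 of 13747 genes were called between the Ogdh hairpins (0%), 1002 had an unadjusted p under 0.05, the smallest adjusted p was 0.672, and DESeq2 called 96 higher and 55 lower. Against the shared control, shOgdh2081 had 968 genes called higher (7.04%) and 932 lower (6.78%). These comparisons share the control libraries, so the values are given side by side. For Ogdh the log2 difference from control was -2.31 with shOgdh346 and -2.11 with shOgdh2081, and the difference between the hairpins -0.20 (95% interval -1.13 to 0.73). Asns was at -2.17 and -1.89, Mcm7 at -1.64 and -1.30, Itgam at 2.13 and 1.95, and Slc7a11 at 4.22 and 5.15.

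Wider gaps were seen in single genes and in some list medians. Capn3, a calpain protease, was at 7.55 to 9.48 CPM with shOgdh2081, against 0.919 to 1.69 CPM with shOgdh346 and 5.04 to 11.7 CPM in the control. Its difference between the Ogdh hairpins was -2.60 (95% interval -3.79 to -1.41), with an adjusted p of 0.672. For Ccdc149 it was -2.15 (95% interval -2.99 to -1.30) and for Chil3 3.89 (95% interval 0.72 to 7.06). For Akr1c21, by contrast, it was 0.14 (95% interval -1.13 to 1.40). None of these differences passed adjustment over all genes, which does not show that the hairpins act alike. The list medians with shOgdh346 and shOgdh2081 were 3.40 and 1.93 for secondary and tertiary granules, and -1.16 and -0.96 for DNA replication. For monocytes and macrophages they were 1.87 and 0.62, with 10 and 5 members called higher. For interferon-stimulated genes they were 1.34 and 0.32, with 7 and 1 called higher.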

How the data were processed

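Polyadenylated RNA was sequenced as single-end TruSeq libraries, per the labels' protocols. The authors deposited whole-number counts under mouse Ensembl identifiers. The submitters' processing notes list featureCounts 1.6.3, STAR 2.6.1a, Trimmomatic 0.36 and FastQC 0.11.5 beside GRCm38, although the labels' protocol also names a human build, another counter and RPKM. The sources used here do not state the strand setting, annotation release or handling of multiply mapped reads, so near-identical copies and antisense partners are uncertain. The table holds 53465 genes.

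For each clone and day, counts were summed over its 2 libraries. Libraries of a clone differed by more than counting noise. The chi-square per gene was 1.605 to 2.943 at day 4 and 6.777 to 10.307 at day 0, so the day 0 pairs were further apart. Genes were filtered with filterByExpr, scaled by TMM and tested with edgeR 4.0.16 in R 4.3.3 (robust quasi-likelihood), with 3 residual degrees of freedom and a median of 2.56 prior ones at day 4. SE is that implied by the test statistic. The net change used 12 sums with clone as a block, since a clone's deviation from its group mean at day 0 and day 4 correlated across genes (r = 0.652 to 0.9), and its prior degrees of freedom were 6.11. With 2 clones per hairpin, p-values rest on the spread between clones within control, shOgdh346 and shOgdh2081, moderated by the prior over all genes. The fits were tested on simulated data.

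Named genes are Ogdh; the 15 largest called rises and falls at day 4 with at least 5 CPM in the higher group and no overlap of libraries; the 6 largest each way in the other contrasts; and up to 4 members of each list with the smallest p. Genes named beyond these (among them Atf3, Atf4, Chac1, Pck2, Psat1, Cdkn1a, S100a8, S100a9, Ngp, Lcn2, Gpnmb, Fos, Myc, Hoxa9, Meis1 and Kit) were chosen after their values were seen. Predicted models and clone names were passed over. The 45 lists (955 different genes, 865 tested), the comparison and the motifs were chosen with earlier results of these data known, and lists are described by counts and medians without a set test. A list median given for 1 clone is the mean of its medians against each control clone. These use log2 ratios of CPM with 0.1 CPM added, and so can differ from the median of the fit. Alternatives were DESeq2 1.42.0, other scaling and filters, other sets of sums, single libraries, and leaving out each library or clone. A floor of 3 counts over a group was used where it held 0. Promoters are from RefSeq. Some genes are counted in the lists but not reported here.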

Additional observations from a re-analysis of the deposited data

Results flagged for a closer look

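Groups of 4 libraries were looked at for a library apart from the other 3. By this measure, the gap of the highest or lowest library as a share of the group's range, 11 of 372 groups of named genes stood out. For independent values chance gives about 1 in 20. Libraries here come in pairs from a clone, so that rate does not apply as it stands. In the control libraries this share was 1.0 for Retnlg, 1.0 for Abca1, 0.837 for Fh1, 0.851 for Atp5o, 0.912 for Fto, 0.907 for Cpox, 0.870 for Prf1, 0.849 for Gp1bb and 0.881 for Cd74. In the shOgdh346 libraries this share was 0.907 for Spi1 and 0.865 for Cebpd. Retnlg and Abca1 had counts in a single control library, at 0.105 and 0.229 CPM.

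The day 4 difference also differed from the day 0 difference of the same clones in the test of the net change, in which edgeR's adjusted p was under 0.05 for each gene given here. The net log2 changes follow, beside the day 4 differences given above. Among the leading rises it was 10.03 for Retnlg, 6.93 for Stfa2, 5.95 for Slc2a3, 6.71 for Fpr2, 5.96 for Clec4b2, 4.23 for Chil3, 3.80 for Nrp1, 5.45 for Abca1, 5.39 for Stfa2l1, 4.90 for Olfm4 and 5.27 for Ltf. Among Ogdh and the leading falls it was -1.64 for Ogdh, -3.69 for Cth, -2.51 for B3gnt5, -3.44 for P2rx3, -3.19 for Slc1a4, -3.60 for Aldh1l2, -2.45 for Capn3, -2.75 for Phgdh, -1.77 for Lhfp, -1.96 for Mgl2, -1.45 for Fads2 and -2.76 for Pycr1.

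For 2-oxoglutarate dehydrogenase complex and lipoylation it was -0.48 for Lias. For TCA cycle it was -0.75 for Idh2, -1.08 for Suclg2, -1.18 for Fh1 and -1.08 for Pcx. For glutamine, glutamate, aspartate and proline it was -1.71 for Gpt2, -2.24 for Asns, -1.02 for Oat and -1.38 for Aldh18a1. For branched-chain amino acid breakdown it was -0.89 for Bckdk, 0.81 for Acadsb, -0.99 for Pcca and -0.69 for Mut. For ATF4 targets it was -1.23 for Atf5, 1.21 for Ddit4 and -1.89 for Shmt2. For serine and folate it was -1.25 for Shmt1 and -1.17 for Mthfd1. For cytosolic aminoacyl-tRNA synthetases it was -1.25 for Cars, -1.14 for Mars, -1.18 for Vars and -1.25 for Yars.

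For glycolysis and lactate it was 1.18 for Slc2a1, 0.89 for Pkm and -0.87 for Slc16a1. For respiratory chain, nuclear subunits it was -0.91 for Ndufa5, -0.72 for Ndufs7, -0.73 for Ndufv1 and -0.75 for Atp5o. For hypoxia-inducible factor and targets it was 0.69 for Vegfa, 2.21 for Ankrd37, 1.35 for Ndrg1 and 1.43 for P4ha1. For 2-oxoglutarate-dependent dioxygenases it was 0.46 for Kdm5a, 1.63 for Kdm6b, 1.25 for Kdm7a and -0.60 for Fto. For cholesterol synthesis it was -1.28 for Mvk, -0.81 for Cyp51 and -0.63 for Stard4. For NRF2 and glutathione it was 2.52 for Nqo1, 2.74 for Hmox1, 4.36 for Slc7a11 and 0.89 for G6pdx. For purine and pyrimidine synthesis it was -1.11 for Pfas, -1.09 for Umps, -1.22 for Tk1 and -1.30 for Dut.

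For DNA replication and G1/S it was -1.54 for Mcm7, -1.32 for Cdc6, -1.29 for Hells and -1.77 for Ung. For mitosis and G2/M it was -1.26 for Ccna2, -1.11 for Ccnb1, -1.42 for Cenpf and -1.38 for Aspm. For ribosome biogenesis and MYC it was 2.09 for Mxd1, -0.98 for Nop58, -1.24 for Gar1 and -1.23 for Utp20. For cytosolic ribosomal proteins it was -0.56 for Rpl10a. For p53 targets and cell cycle inhibitors it was 1.06 for Mdm2, 1.97 for Trp53inp1 and 1.23 for Gadd45a. For BCL2 family it was 1.48 for Bcl2l1, 0.67 for Mcl1 and 1.98 for Bcl2l11. For primary granules it was -1.68 for Elane, -1.44 for Ctsg, 4.89 for Lyz1 and 3.22 for Lyz2.

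For secondary and tertiary granules it was 2.22 for Itgam, 1.93 for Itgb2, 1.42 for Anxa2 and 3.84 for Wfdc21. For S100 and stefin genes it was 1.15 for S100a11 and 6.89 for BC117090. For monocytes and macrophages it was 3.36 for Fcgr4, 3.91 for Lgals3 and 3.98 for Ccl6. For chemoattractant receptors it was 6.01 for C5ar1, 1.78 for Ccr1 and 2.11 for Ptafr. For Toll-like receptors and interleukin 1 it was 1.20 for Tlr4, 6.37 for Il1rn, 4.11 for Il1r2 and 0.61 for Il1rap. For NADPH oxidase it was 0.83 for Cyba, 1.24 for Ncf1, 0.57 for Ncf4 and 0.71 for Rac2. For myeloid transcription factors it was 0.58 for Spi1, 0.82 for Cebpd, 1.42 for Cebpe and 2.68 for Klf6.

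For leukaemia self-renewal it was -1.54 for Hmgb3, -0.90 for Psip1, -0.54 for Men1 and 0.87 for Sox4. For AP-1 and EGR it was 2.20 for Jun, 5.62 for Egr1, -1.41 for Nr4a2 and 1.57 for Bach1. For RAS-ERK feedback it was 0.68 for Nras, 1.47 for Dusp5 and 2.48 for Spry4. For interferon-stimulated it was 3.06 for Oas2, 2.25 for Oas3 and 0.96 for Dhx58. For lysosome it was 0.66 for Atp6v0d1, 0.89 for Tfe3, 1.36 for Sqstm1 and 0.79 for Neu1. For iron and heme it was 1.32 for Fth1 and -1.40 for Cpox. For MHC class I presentation it was -0.66 for Tap2, -1.12 for Psmb8, -1.11 for Psmb9 and -1.11 for Psmb10.

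For myeloid progenitor it was 1.07 for Ptprc. For T cell and NK cell it was 4.31 for Prf1. For megakaryocyte and platelet it was 4.30 for Gp1bb and 3.50 for Vwf. For dendritic cell it was -5.004 for Flt3, 2.29 for Itgax, 3.62 for H2-Ab1 and 3.18 for Cd74. For fibroblast and stroma it was 6.95 for Col1a1.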

How the results depend on the processing

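The count of genes called at day 4 grew to 2785 lower (2328 higher) with 12 sums of both days, and to 3645 higher and 3635 lower with single libraries as samples, which treats libraries of a clone as replicates. Without 1 library or clone it ran from 4 to 1596 higher and from 0 to 1650 lower, the low ends without shOgdh346 clone 1. Between the Ogdh hairpins the count of 0 became 16 higher and 11 lower without the filter, 96 and 55 in DESeq2 and 733 and 539 with single libraries, and at day 0 it became 17 and 37 in DESeq2. The net change without the clone block was called for 901 genes higher and 1395 lower. Ogdh kept its direction in each alternative but not its call without the filter (-2.30, adjusted p = 0.0892) and without any 1 clone (-2.69 to -2.03 over left-out libraries and clones).

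With single libraries and a replicate block, 3532 genes were called higher and 3572 lower at day 4, and 607 and 455 between the Ogdh hairpins, with a median of 0.48 for myeloid transcription factors. At day 4 the replicate numbers do not pair the libraries: deviations of same-numbered libraries of different hairpins correlated at 0.047 to 0.083. This correlation was not computed at day 0. There the TMM factors were 0.9969 to 1.0027 in libraries numbered 1 and 1.0237 to 1.0355 in those numbered 2, so a shared effect of the number at day 0 is possible.

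Of 36 list medians in 828 values under the alternatives, 54 moved by more than the spread between clone pairs and 6, in 3 lists, changed sign. On total counts without scaling the medians were glutamine, glutamate, aspartate and proline -0.52, respiratory chain, nuclear subunits -0.54, hypoxia-inducible factor and targets 0.36, 2-oxoglutarate-dependent dioxygenases -0.0735, purine and pyrimidine synthesis -1.07, DNA replication and G1/S -1.29, mitosis and G2/M -1.02, ribosome biogenesis and MYC -0.77, cytosolic ribosomal proteins -0.44, BCL2 family 0.43, NADPH oxidase 0.70, myeloid transcription factors 0.49 and iron and heme -0.0267. In single libraries as samples it was myeloid transcription factors 0.48; in libraries numbered 1 alone they were 2-oxoglutarate dehydrogenase complex and lipoylation -0.65, myeloid transcription factors 0.48 and interferon-stimulated 1.08; in libraries numbered 2 alone it was BCL2 family 0.48. With 4 sums of shOgdh346 and control they were BCL2 family 0.48 and myeloid transcription factors 0.46, and with at least 1 CPM in 2 sums myeloid transcription factors 0.48.

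Over left-out libraries and clones the medians that moved had these ranges: glutamine, glutamate, aspartate and proline -0.51 to -0.37, branched-chain amino acid breakdown -0.53 to -0.17, 2-oxoglutarate-dependent dioxygenases -0.0161 to 0.11, NRF2 and glutathione 0.14 to 0.46, DNA replication and G1/S -1.23 to -1.08, ribosome biogenesis and MYC -0.75 to -0.56, cytosolic ribosomal proteins -0.42 to -0.23, p53 targets and cell cycle inhibitors 0.49 to 0.95, BCL2 family 0.44 to 0.59, primary granules -0.62 to -0.28, secondary and tertiary granules 2.42 to 4.03, S100 and stefin genes 2.47 to 3.92, monocytes and macrophages 0.94 to 2.42, chemoattractant receptors 2.36 to 3.22, Toll-like receptors and interleukin 1 0.95 to 1.67, myeloid transcription factors 0.49 to 0.77, AP-1 and EGR 0.96 to 1.48, interferon-stimulated 0.79 to 1.41, lysosome 0.46 to 0.89 and MHC class I presentation -0.57 to 0.21.

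Markers that were not called changed sign. Pecam1 (0.0024) went to -0.121 and -0.014 with total counts and with 12 sums, in this order, and ran from -0.32 to 0.26 over left-out libraries and clones. Ms4a2 ran from -0.92 to 0.0158 and Pdgfrb from -0.23 to 1.75. The cause of these moves was not tested. Depth limits genes near 0 counts in the control, whose fitted differences depend on the prior count.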
